A study of Mus musculus with 10 samples.

Results

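The genes of MHC class I antigen presentation and the immunoproteasome were examined in microglia from mice given the CSF1R inhibitor GW2580. The 10 genes were taken by symbol and matched to the counted gene identifiers: B2m, H2-K1, H2-D1, Tap1, Tap2, Tapbp, Psmb8, Psmb9, Psmb10 and Nlrc5. All 10 were among the 46152 genes counted. H2-D1, Tap2 and Psmb8 had 0 counts in every library and were dropped, which left 7, and 4 of these passed the filter on low counts. With GW2580 the fitted level of B2m was 2.18-fold lower (edgeR adjusted p = 0.389) and that of Psmb10 2.17-fold lower (edgeR adjusted p = 0.326). Psmb10 alone passed the thresholds of the study, which use the unadjusted p, and short genes as a class also had lower estimates with GW2580. Nlrc5 and the part of H2-K1 that could be counted did not pass the test, and the other genes had 0 or too few counts to be tested.

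Most cells can show fragments of their own proteins to CD8+ T cells on MHC class I molecules. The proteasome cuts the proteins, the TAP transporter moves the peptides into the endoplasmic reticulum, and a loading complex places them on a heavy chain that is held by β2-microglobulin. Interferons raise the transcription of these genes and exchange the catalytic β subunits of the proteasome for those of the immunoproteasome. Microglia, the resident macrophages of the brain, carry class I molecules and raise them in inflammation.

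The cells came from adult C57BL/6J mice aged 8 to 12 weeks. One group received only the vehicle (Tween 80 and Hydroxymethyl Propyl-cellulose) by oral gavage and the other GW2580 at 80 mg/kg/d in this vehicle, both for 8 days. Each group has 5 libraries, 2 from male and 3 from female mice. Microglia were taken from perfused brains by Percoll gradient and magnetic selection for CD11b, a surface protein that other myeloid cells also carry, and cDNA was made with a SMART-Seq kit.

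The libraries held 12550418 to 26079343 fragments assigned to genes. Levels are given as CPM, counts scaled to the size of the library. Tmem119, a gene that marks microglia, averaged 3473 CPM in the vehicle group (SD 673, n = 5) and 5929 CPM in the GW2580 group (SD 3765, n = 5), and all 8 microglia markers passed the filter. On the first principal component of log2 CPM, Vehicle 5 lay at 77.9, on the side of GW2580 1, 3 and 4 (37.8 to 46.4). GW2580 5 lay at -45.8, beside Vehicle 1 to 4 (-40.5 to -35.0), and GW2580 2 lay between the groups at -5.2. This component held 47.1% of the variance. On the second, with 26.5%, Vehicle 5 lay at 67.6 and Vehicle 2 at 39.6, and GW2580 1 and GW2580 4 lay at -43.8 and -52.7. The other libraries lay from -5.6 to 0.38 there, so Vehicle 5 stood apart from both groups on this component. Results that rest on Vehicle 5 and GW2580 5 are also given without them. The scaling factors (TMM) ran from 0.691 to 1.61. Without them the median log2 fold change of all genes tested moved up by 0.26 and the share of higher genes among those called went from 37.5% to 70.8%. RNA was taken from pools of cells, so fewer cells of a type and less RNA per cell cannot be told apart.

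Upstream sequence was at hand for 8 of the 10 genes, as the 250 bases before each start of transcription in RefSeq (GRCm38.p6). The windows of B2m, H2-K1, H2-D1 and Psmb10 are shown because B2m and Psmb10 carry the fold changes described here, and the H2-K1 and H2-D1 heavy chains are the partners of B2m. H2-K1 has another window, chr17:34000334-34000583, that overlaps the window shown. Both H2-K1 windows lie inside the annotated span of the gene (chr17:33996012-34000619). Capitals mark matches on either strand to 4 short motifs: AANNGAAA, the core bound by interferon regulatory factors, TGACG, part of the site of CREB and ATF factors, the CCAAT box of NF-Y, and a pattern like the sites of NF-κB, GGGA and CC with any 4 bases between them. The motifs were chosen with these windows in view.

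B2m, chr2:122147437-122147686, plus strand: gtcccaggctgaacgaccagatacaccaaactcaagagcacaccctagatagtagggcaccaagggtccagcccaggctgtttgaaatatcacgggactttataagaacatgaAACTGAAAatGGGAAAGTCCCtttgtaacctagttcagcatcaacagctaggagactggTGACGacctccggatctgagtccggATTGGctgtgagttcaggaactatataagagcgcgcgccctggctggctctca
H2-K1, chr17:34000348-34000597, minus strand: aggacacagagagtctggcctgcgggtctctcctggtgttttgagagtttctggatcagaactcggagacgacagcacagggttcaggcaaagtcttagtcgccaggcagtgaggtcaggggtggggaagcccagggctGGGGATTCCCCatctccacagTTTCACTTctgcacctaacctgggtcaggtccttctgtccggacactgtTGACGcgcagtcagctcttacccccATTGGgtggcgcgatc
H2-D1, chr17:35262844-35263093, plus strand: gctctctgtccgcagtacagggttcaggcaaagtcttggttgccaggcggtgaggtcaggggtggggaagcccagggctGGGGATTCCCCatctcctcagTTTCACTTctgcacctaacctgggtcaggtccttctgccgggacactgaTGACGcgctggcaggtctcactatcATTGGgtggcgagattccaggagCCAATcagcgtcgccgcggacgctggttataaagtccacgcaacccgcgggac
Psmb10, chr8:105938393-105938642, minus strand: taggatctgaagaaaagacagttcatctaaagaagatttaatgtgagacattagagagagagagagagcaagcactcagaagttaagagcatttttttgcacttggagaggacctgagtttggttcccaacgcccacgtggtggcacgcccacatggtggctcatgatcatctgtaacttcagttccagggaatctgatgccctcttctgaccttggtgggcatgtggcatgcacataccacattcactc

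The B2m, H2-K1 and H2-D1 windows hold all 4 motifs. In B2m the AANNGAAA match begins 137 bases before the start, TGACG 78 and the CCAAT box 53. In the H2-D1 window they begin 150, 101 and 76 bases before it. Matches to the NF-κB-like pattern overlapped each other in these windows, 1 on each strand. The Psmb10 and Psmb8 windows hold none of the motifs, Tap1 and Psmb9 hold TGACG and CCAAT, and Tapbp holds CCAAT alone. Among 32851 windows of this length, 21.3% hold AANNGAAA, 17.8% TGACG, 33.8% CCAAT and 17.6% the NF-κB-like pattern. A match is a match of letters and says nothing on binding in these cells.

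The first question was how well each gene could be counted. 7 of the 10 genes lie in the MHC on chromosome 17, between Tapbp (chr17:33919478-33929290) and H2-D1 (chr17:35263094-35267497), and the annotation used for counting carries each of them on chromosome 17 and on 3 further sequences. Only fragments that aligned to 1 place were counted. H2-K1, the classical K heavy chain, kept 334 fragments over the 10 libraries, Psmb9 kept 74, Tap1 kept 18 and Tapbp kept 2. H2-D1, the classical D heavy chain, Tap2, a chain of the TAP transporter, and Psmb8, a catalytic subunit of the immunoproteasome, kept 0. A count of 0 allows up to 3 counts, or 0.141 to 0.250 CPM in these libraries, of fragments that align to 1 place. This floor covers counting error only and does not limit expression of the gene.

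The same pattern held for the genes of chromosome 17 with 3 further sequences. Of 20641 protein-coding genes annotated on their chromosome only, 1.56% had 0 counts in all libraries and the median gene had 1530. Of the 171 chromosome 17 genes with 3 further sequences, 52.0% had 0 counts, the median was 0, and 16 passed the filter. Over all chromosomes there were 196 such genes. The 30 chromosome 17 genes with 2 further sequences were less affected: 6.67% had 0 counts and 23 passed. Of the 81 with 1 further sequence, 29.6% had 0 counts and 22 passed. All 90 protein-coding genes from Tapbp to H2-D1 have further sequences, 51 of them had 0 counts, and 5 passed. Low counts of the 7 MHC genes can therefore not be read as low expression. B2m on chromosome 2, and Psmb10 and Nlrc5 on chromosome 8, are annotated on their chromosome only.

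**Figure D1:**
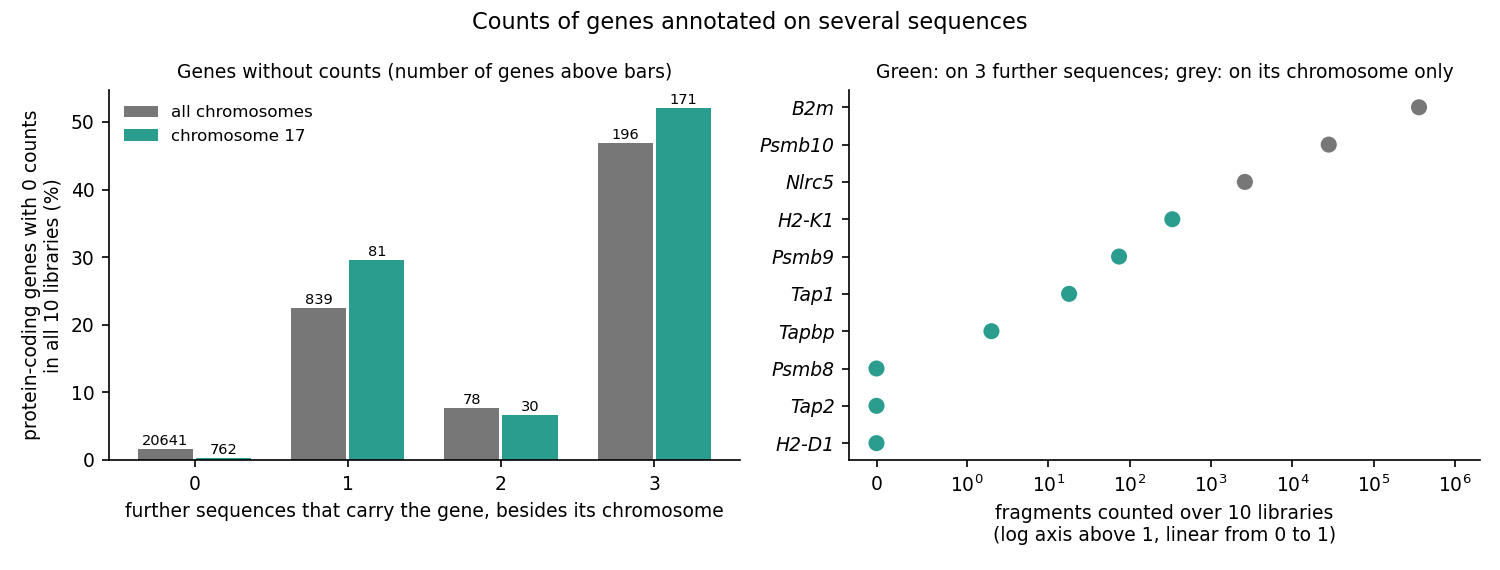
Left, percentage of protein-coding genes with 0 counts in all 10 libraries by the number of further sequences that carry the gene, for all chromosomes (grey) and chromosome 17 (green), with the number of genes above each bar. Right, fragments counted over 10 libraries for each of the 10 genes on a log axis, with the 7 on 3 further sequences in green. The 7 green genes hold 0 to 334 fragments, and B2m, Psmb10 and Nlrc5 hold 358933, 27906 and 2602.

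B2m encodes β2-microglobulin, the light chain of every class I molecule (gene 12010, chr2:122147687-122153082). It was read at 3646, 3576, 4664, 3786 and 719.9 CPM in Vehicle 1 to 5, and at 799.4, 1888, 1557, 358.6 and 2907 CPM in GW2580 1 to 5. Vehicle 5 lay far under the other vehicle libraries and within the range of the GW2580 libraries, so the groups overlapped. Per kilobase of exon B2m ranked 15 among the 28419 genes tested, at 3821 ± 1743 CPM per kb in the vehicle group and 1750 ± 1155 in the GW2580 group (SD, n = 5). The log2 fold change of GW2580 against vehicle was -1.13 (SE 0.60), 2.18-fold lower, with an unadjusted p = 0.082 by edgeR's quasi-likelihood test and p = 0.127 by the two-sided exact permutation test. The Benjamini-Hochberg adjusted p was 0.389.

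Psmb10 encodes β2i, the immunoproteasome subunit that takes the place of Psmb7 (gene 19171, chr8:105935728-105938392). It was read at 235.7, 303.8, 314.3, 322.3 and 76.3 CPM in Vehicle 1 to 5. In GW2580 1 to 5 it was read at 52.9, 174.0, 145.1, 37.8 and 168.1 CPM. As for B2m, Vehicle 5 lay under the other vehicle libraries and GW2580 1 and GW2580 4 were the lowest of their group. The log2 fold change was -1.12 (SE 0.50), 2.17-fold lower, with an unadjusted p = 0.043 by edgeR and p = 0.119 by the exact permutation test. The adjusted p was 0.326. Under the thresholds of the study a gene is called when its level differs more than 2 times and edgeR's p before adjustment is under 0.05, so Psmb10 was called lower and B2m was not.

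Psmb10 was the 1 gene called among the 4 tested, and the 4 had a median log2 fold change of -0.57 against -0.03 for all genes tested. Over all genes, 10.7% were called, 6.7% lower and 4.01% higher. The study reports fewer called genes at these thresholds, so a call here is not a call by the study. At an adjusted p under 0.05 edgeR called 0 genes (0%), beside 4186 at an unadjusted p under 0.05 (14.7%) and 232 at an adjusted p under 0.05 by DESeq2 (0.526%). DESeq2 called both B2m and Psmb10 lower by fold and unadjusted p, as it did 6.47% of genes. The DESeq2 shares are over 44086 genes without the filter on low counts, and the edgeR shares over 28419.

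Both results moved with the libraries that stood apart. With Vehicle 5 and GW2580 5 left out, the log2 fold change was -1.86 for B2m (adjusted p = 0.037) and -1.62 for Psmb10 (adjusted p = 0.027) by edgeR, and both were called lower, where 15.2% of all genes were. In that fit 11.1% of all genes were lower at an adjusted p under 0.05. These libraries were left out because they lay with the other group, a choice that itself widens the difference between groups, so these p-values are a description and no support for a difference. With Vehicle 5 alone set aside, all 5 GW2580 libraries lay below Vehicle 1 to 4 for both genes, as they did for 3.05% of genes tested. B2m and Psmb10 were both called without Vehicle 5 (B2m -1.38, edgeR adjusted p = 0.184), where 6.74% of all genes were called lower, and without GW2580 5 (B2m log2 fold change -1.6, edgeR adjusted p = 0.167), where 13.2% were. Psmb10 was not called without Vehicle 1, 2, 3 or 4, GW2580 1 or GW2580 4, with log2 fold changes from -1.14 to -0.89 (edgeR adjusted p from 0.376 to 0.668).

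**Figure D2:**
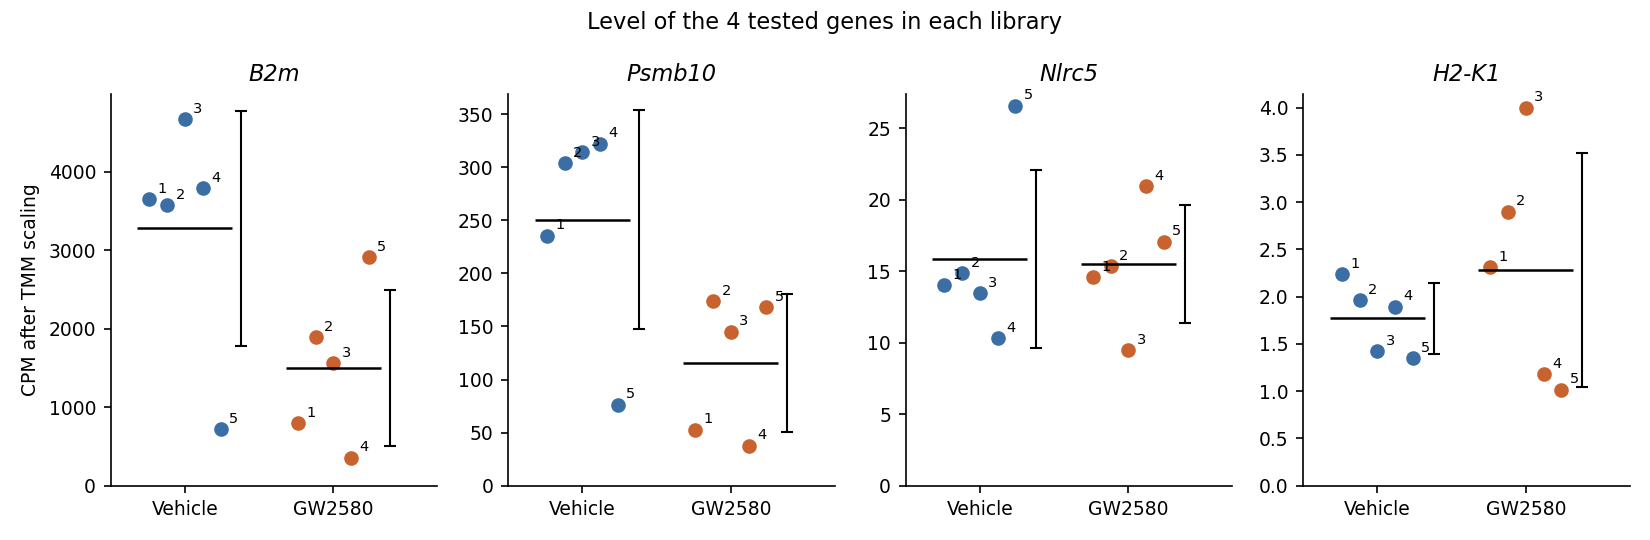
CPM of B2m, Psmb10, Nlrc5 and H2-K1 in the 5 vehicle (blue) and 5 GW2580 (orange) libraries, with library numbers, group mean (line) and SD (bar). Vehicle 5 lies at 719.9 CPM for B2m and 76.3 CPM for Psmb10, under the other vehicle libraries, and at 26.6 CPM for Nlrc5, above them, and the H2-K1 axis holds only fragments that align to 1 place.

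B2m and Psmb10 have short exons in sum, 858 and 1270 bases, and short genes as a class were lower with GW2580. Of 885 protein-coding genes above 20 CPM and under 1500 bases, 876 (99%) had a lower estimate, 28.1% were called lower and 0 were called higher, with a median log2 fold change of -0.87. The 3418 such genes of 4000 bases or more had a median of 0.13, and 3.22% were called lower. These length limits were chosen after seeing the data. On the log2 CPM scale the median of the 885 short genes differed from the mean of Vehicle 1 to 4 by -0.89 in Vehicle 5, and by -2.0, -0.68, -1.01, -2.61 and -0.45 in GW2580 1 to 5. The same differences for B2m were -2.44, and -2.28, -1.05, -1.32, -3.44 and -0.42, and for Psmb10 they were -1.93, and -2.46, -0.75, -1.01, -2.94 and -0.80. GW2580 4 was the lowest for all 3 measures. GW2580 1 came next for the short genes and Psmb10, and Vehicle 5 for B2m. Vehicle 5 lay below GW2580 3 for B2m and Psmb10 but not for the short genes as a class.

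With the length trend of abundant protein-coding genes removed from each library, an alternative added after seeing the data, the log2 fold change was -0.056 for B2m (edgeR adjusted p = 0.940) and -0.45 for Psmb10 (edgeR adjusted p = 0.395), and no member was called. The percentage of counting records on no annotated exon moved in part with these values. It was highest in GW2580 4 and GW2580 1, at 60.1% and 56.1%, but 40.2% in Vehicle 5, and ran from 38.4% to 51.5% in the other libraries. With this percentage as a second term the log2 fold change was -0.96 for B2m (edgeR adjusted p = 0.679) and -0.90 for Psmb10 (edgeR adjusted p = 0.660). What made short genes low in these libraries was not tested.

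**Figure D3:**
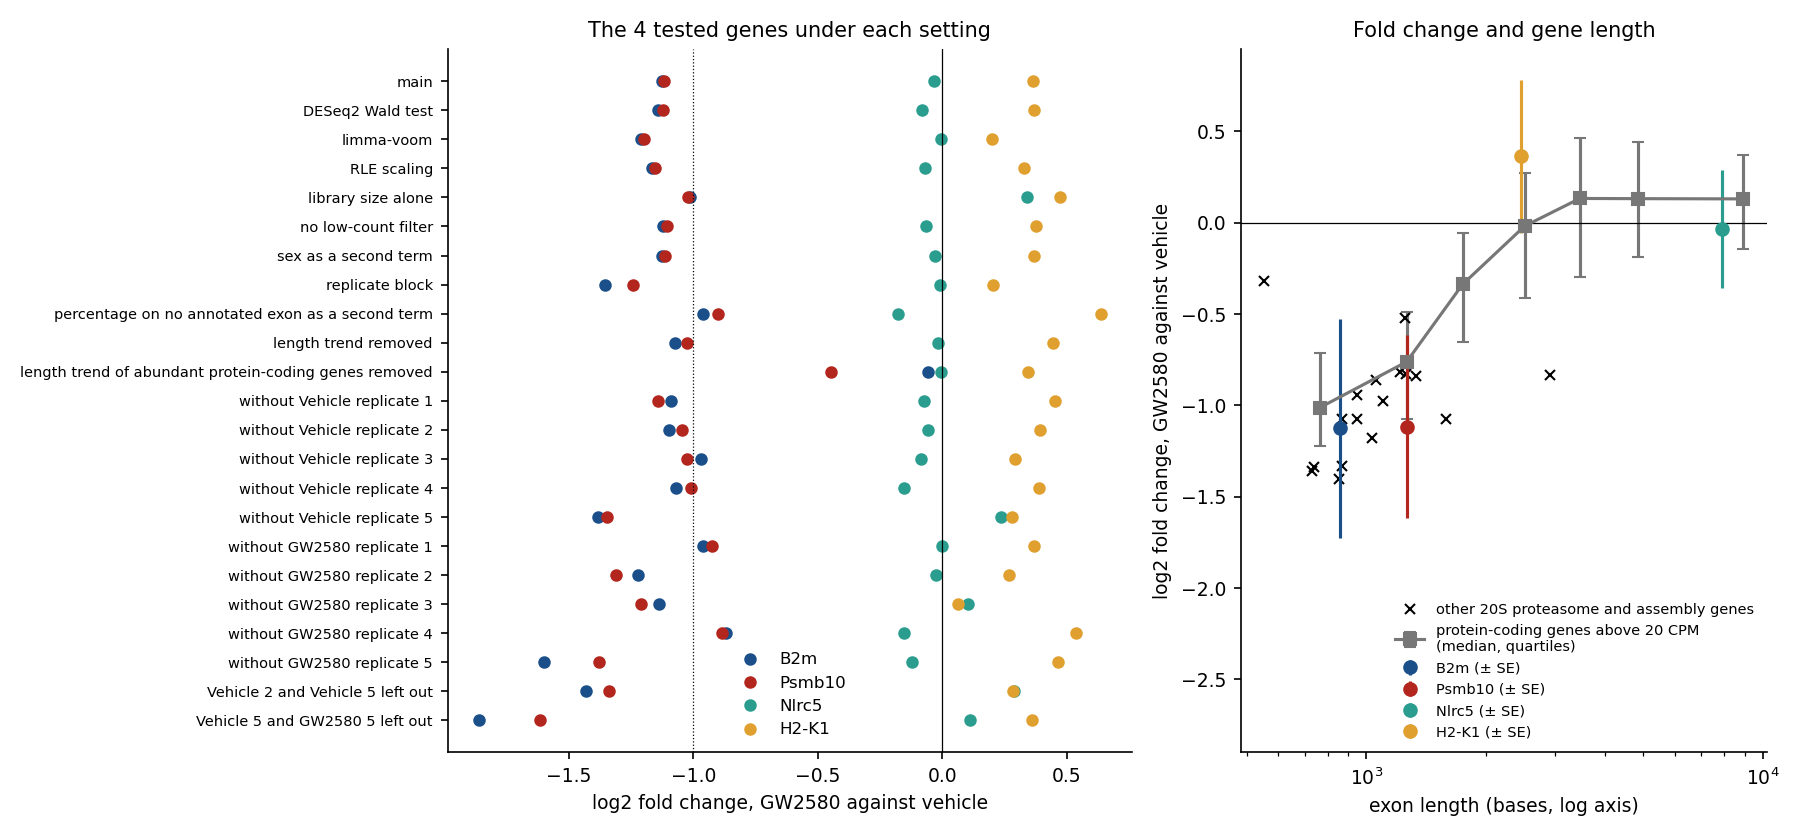
Left, log2 fold change of the 4 tested genes under each setting, where each point is 1 gene. Right, log2 fold change against exon length on a log axis, with medians and quartiles of protein-coding genes above 20 CPM in length classes (grey), the 4 genes with their SE (colours) and other 20S proteasome and assembly genes (crosses); the median falls from 0.13 in genes of 6000 bases or more to -1.01 under 1000 bases.

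Nlrc5, the transactivator that drives class I transcription, has long exons in sum (7915 bases, gene 434341, chr8:94434335-94527272) and showed no difference past the test. It was read at 14.0, 14.8, 13.4, 10.3 and 26.6 CPM in Vehicle 1 to 5. In GW2580 1 to 5 it was read at 14.6, 15.4, 9.50, 20.9 and 17.1 CPM. Vehicle 5 was the highest of its group here, and the groups overlapped over most of their range. The log2 fold change was -0.03 (SE 0.32, edgeR adjusted p = 0.971) and took the opposite sign without TMM factors (0.34) and without Vehicle 5 (0.24).

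The genes of the MHC gave few fragments. H2-K1 (gene 14972, chr17:33996012-34000619) had 31, 28, 17, 33 and 24 counts in Vehicle 1 to 5 and 45, 44, 72, 25 and 15 in GW2580 1 to 5. Its log2 fold change of 0.36 (SE 0.42, edgeR adjusted p = 0.698) describes the part of the gene that aligns to 1 place. Psmb9, which encodes the β1i subunit of the immunoproteasome, had 16, 7, 11, 7 and 7 counts with vehicle and 3, 11, 5, 2 and 5 with GW2580. That is 48 counts against 26, with ranges that overlap, and Psmb9 did not pass the filter. Tap1, the other chain of the TAP transporter, had 10 of its 18 counts in Vehicle 5, and both counts of Tapbp, the bridge between TAP and the heavy chain, were in GW2580 1.

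Psmb10 was next compared with Psmb7, the standard subunit whose place it takes, inside each library and per kilobase of exon. The log2 ratio was 1.80, 1.6, 2.02, 2.01 and -0.066 in Vehicle 1 to 5. It was 0.72, 1.46, 1.35, 1.03 and 1.68 in GW2580 1 to 5. Psmb10 was thus the higher of the pair in every library but Vehicle 5. The mean was 1.47 ± 0.88 in the vehicle group and 1.25 ± 0.38 in the GW2580 group (SD, n = 5), a difference of -0.22 (exact permutation test, two-sided, p = 0.635, adjusted p = 0.635 over the 2 pairs that could be formed of 7 listed). Without Vehicle 5 the difference was -0.61 (exact permutation p = 0.032), and without Vehicle 5 and GW2580 5 it was -0.72 (exact permutation p = 0.029). Neither p was adjusted over the pairs. Vehicle 5 held the lowest ratio, and both libraries were left out because they lay with the other group. That choice itself widens the difference, so these p-values are a description and no support for a lower ratio. For H2-K1 against B2m, where H2-K1 holds only its fragments at 1 place, the difference was 1.42 (exact permutation p = 0.111, adjusted p = 0.222). The 5 other pairs need a gene at 0 counts or under the filter.

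The other tested genes of the 20S proteasome and its assembly gave lower estimates with GW2580 (values after ± are the SD of 5 libraries). Genes of the regulatory cap of the proteasome were not examined. Of the standard catalytic subunits, Psmb5, the chymotrypsin-like β5, was called lower (117 ± 26.7 CPM with vehicle and 46.7 ± 25.9 with GW2580, log2 fold change -1.33, SE 0.42, edgeR adjusted p = 0.280). Psmb7, the trypsin-like β2, was at 67.4 ± 9.95 and 37.1 ± 15.6 CPM (log2 fold change -0.86, edgeR adjusted p = 0.294) and did not reach a fold of 2. Without Vehicle 5 and GW2580 5 the log2 fold changes were -1.65 for Psmb5 and -1.03 for Psmb7. The call of Psmb5 was lost with the percentage on no annotated exon as a term (-0.98) and with the length trend of abundant genes removed (-0.27). Psmb6 lies on 1 further sequence and did not pass the filter. Of 15 tested genes of the other 20S subunits and their assembly factors, 7 were called lower and 15 had a lower estimate, with a median log2 fold change of -0.98, where 6.7% of all genes tested were called lower. The 7 were the ring subunits Psma2 (-1.07), Psma7 (-1.07), Psmb1 (-1.18), Psmb2 (-1.41) and Psmb3 (-1.36), the proteasome maturation protein gene Pomp (-1.33) and the assembly chaperone gene Psmg3 (-1.07), with adjusted p from 0.280 to 0.325 by edgeR.

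The count of 7 moved with single libraries. It was 14 without GW2580 5, where 13.2% of all genes were called lower, and 9 without Vehicle 5, where 6.74% were. It was 4 without Vehicle 1, 2 without Vehicle 2 or GW2580 1, and 3 without Vehicle 3 or Vehicle 4. Without GW2580 2 it was 7, without GW2580 3 it was 5 and without GW2580 4 it was 1. With any of these last libraries left out, from Vehicle 1 to 4 and GW2580 1 to 4, 1087 to 2202 of 27522 to 28358 genes were called lower. It was 6 with the length trend of all genes tested removed, where 1933 of 28419 genes were called lower. It was 0 with the length trend of abundant genes removed or the percentage on no annotated exon as a term, where 706 and 476 of 28419 genes were called lower. With Vehicle 5 and GW2580 5 left out it was 14, where 15.2% of all genes were called lower. All 7 but Psma7 (1591 bases) are under 1500 bases, the class in which 28.1% were called lower.

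The activator PA28, which opens the proteasome and is induced with the immunoproteasome by interferon-γ, gave lower estimates in its short genes. Psme2 (977 bases), its β subunit, was at 217 ± 84.3 CPM with vehicle and 89.3 ± 57.4 with GW2580 and was called lower (log2 fold change -1.28, edgeR adjusted p = 0.291). Its call was lost without Vehicle 1 (-1.20), without GW2580 1 (-1.11), with the percentage on no annotated exon as a term (-1.08) and with the length trend of abundant genes removed (-0.35). Psme1, its α subunit of the same length, was at 243 ± 56.8 and 126 ± 65.1 CPM (log2 fold change -0.95, edgeR adjusted p = 0.327). Without Vehicle 5 and GW2580 5 the log2 fold change was -1.97 for Psme2 and -1.31 for Psme1, and Psme1 then passed a fold of 2. Psme3, the nuclear PA28γ (3169 bases), was at 106 ± 95.2 and 80.0 ± 36.6 CPM (log2 fold change -0.40, edgeR adjusted p = 0.719). Vehicle 5 stood at 274.9 CPM and the other vehicle libraries at 53.8 to 82.0. Without Vehicle 5 the vehicle mean was 63.5 CPM and the log2 fold change turned to 0.34 (edgeR adjusted p = 0.567). Psme4, which was listed with these genes but encodes a different activator, had a higher estimate over all libraries (log2 fold change 0.18) and was not called.

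**Figure D4:**
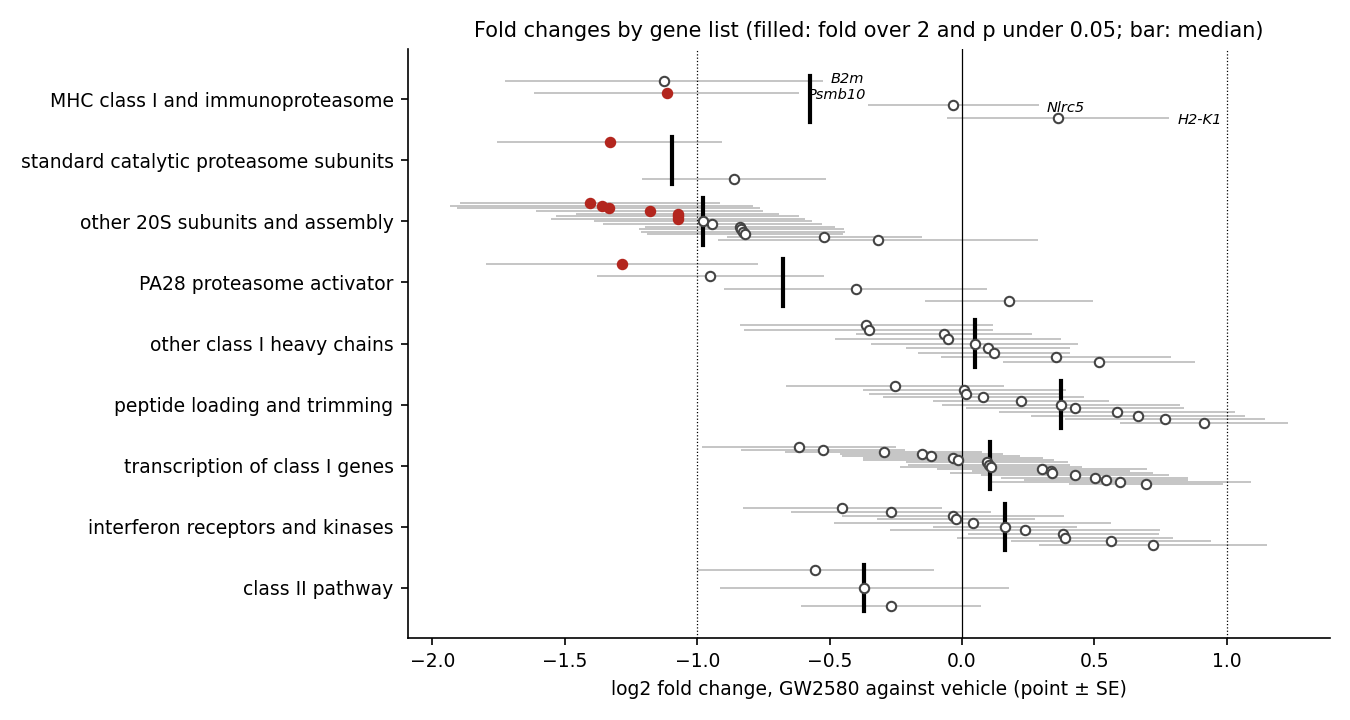
Log2 fold change of GW2580 against vehicle with SE for the tested genes of each list, with called genes filled in red and the list median as a bar. Red points occur for Psmb10, Psmb5, 7 other 20S and assembly genes and Psme2, all on the lower side, and in no other list shown.

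Of the genes tested in the other lists of the pathway, 0 were called in either direction by edgeR, DESeq2 or limma-voom. Named after their values were seen, Lnpep (log2 fold change 0.91, edgeR adjusted p = 0.280) and Rel (0.69, edgeR adjusted p = 0.304) were the 2 with an unadjusted p under 0.05, both under a fold of 2. The count of 0 moved with the libraries, most with Vehicle 5. Without Vehicle 5, Tpp2 (1.06), Canx (1.00), Erap1 (1.06) and Rela (1.14) were called higher (edgeR adjusted p from 0.163 to 0.184), where 6.18% of all genes were. With Vehicle 5 and GW2580 5 left out Tyk2 (1.05) was called higher as well, where 1928 of 27215 genes were. Lnpep passed a fold of 2 without Vehicle 3 or GW2580 4 (1.01 in each). Among 9 other class I heavy chains the median log2 fold change was 0.05. H2-T23, the nonclassical chain Qa-1, was at 303 ± 91.3 CPM with vehicle and 292 ± 153 with GW2580. Fcgrt, the neonatal Fc receptor chain that also pairs with β2-microglobulin and lies on chromosome 7, was at 207 ± 26.5 and 214 ± 119 CPM. H2-T24 was at 27.2 ± 3.55 and 29.5 ± 9.73 CPM. H2-T23 and H2-T24 are among 5 of the 9 tested chains on further sequences, whose levels hold only fragments that align to 1 place. Of 20 listed chains 16 lie on further sequences and 4 had 0 counts.

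Peptide loading and trimming (11 genes) had a median of 0.37, with 10 of 11 estimates above 0. Hspa5, the chaperone BiP, was at 1866 ± 199 CPM with vehicle and 2510 ± 1109 with GW2580. Pdia3, the thiol oxidoreductase ERp57 of the loading complex, was at 944 ± 117 and 950 ± 420 CPM, and Calr, calreticulin, at 594 ± 144 and 628 ± 280 CPM. The 18 tested regulators of class I transcription had a median of 0.10. Irf8, a factor that myeloid cells need, was at 638 ± 85.9 and 806 ± 399 CPM, Irf1 at 136 ± 19.3 and 183 ± 87.6, and Rela, an NF-κB subunit, at 175 ± 123 and 264 ± 173.

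The 11 interferon receptor and kinase genes had a median of 0.16. Ifngr1, the ligand-binding chain of the interferon-γ receptor, was at 798 ± 169 CPM with vehicle and 1046 ± 550 with GW2580. Socs3, a feedback inhibitor of cytokine signaling, was at 448 ± 95.1 and 738 ± 466 CPM and Ifnar2 at 361 ± 91.8 and 264 ± 109 CPM. Of 10 class II genes, 5 had 0 counts and 3 were tested: Ctss (cathepsin S), Cd74 (the invariant chain) and Ciita (the class II transactivator). Cd74 was at 1745 ± 443 and 1189 ± 700 CPM, Ctss at 7185 ± 2964 and 5564 ± 2660, and Ciita at 13.9 ± 2.59 and 11.5 ± 5.65.

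**Figure D5:**
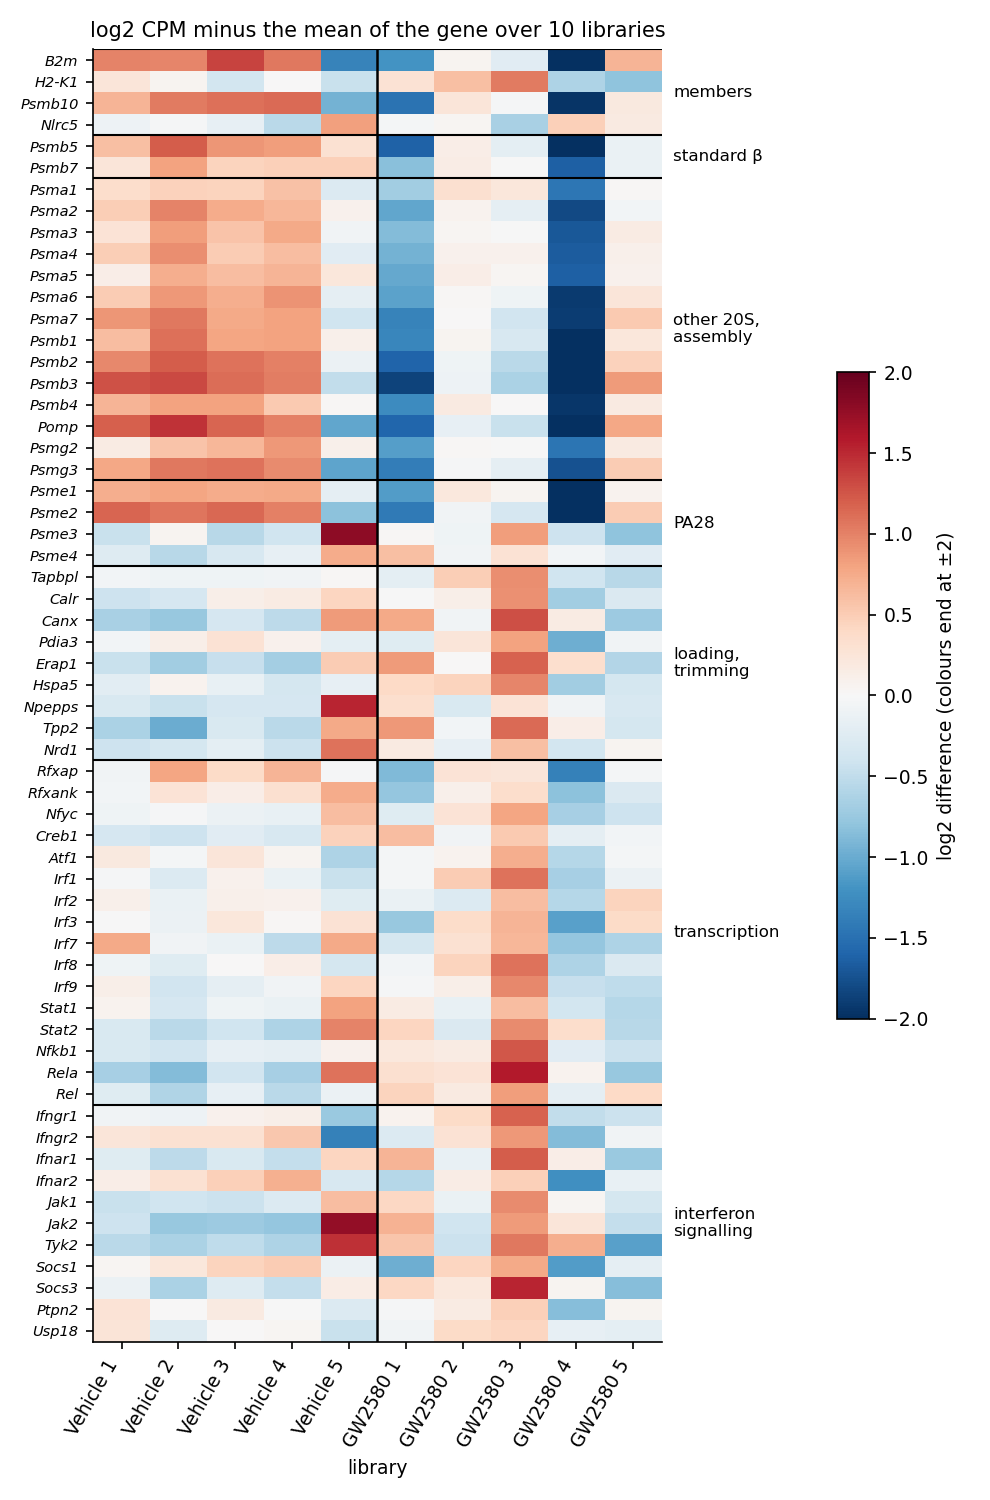
Log2 CPM of each gene (row) minus its mean over the 10 libraries (columns), for the 4 tested genes and for genes above 20 CPM of the proteasome, PA28, loading, transcription and interferon lists, with red high and blue low. Proteasome rows, B2m and Psmb10 are blue in GW2580 4 and GW2580 1, while rows of the lower lists are red in GW2580 3. Vehicle 5 is blue for B2m (-1.34) and Psmb10 (-0.94) but not for Psmb5 (0.31) or Psmb7 (0.48). Its other 20S and assembly rows lie on both sides, from -1.06 (Psmg3) to 0.23 (Psma5).

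The library pattern of each gene was compared with that of 7580 genes above 20 CPM over the 10 libraries. The genes most like B2m were BC028528 (Pearson r = 0.994), Pop7 (0.992) and Gpx1 (0.992). For Psmb10 they were Atraid (0.995), Tmem11 (0.993) and Exosc8 (0.993). Pop7, Gpx1, Atraid and Exosc8 are under 1500 bases, while BC028528 has 2917 and Tmem11 1511. For Nlrc5 the order was Pdzd2 (0.911), Hbb-bs (0.892) and Hba-a1 (0.876), and for H2-K1 it was Armc8 (0.968), Ctsc (0.954) and Cd33 (0.953). All points share libraries, depth and scaling, and the values describe these 10 libraries only.

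Sex did not change the treatment difference past the test in any of the 4 genes (interaction, edgeR adjusted p = 1.00). In male mice B2m averaged 3611 CPM with vehicle and 1343 with GW2580 (n = 2 each), and in female mice 3057 and 1607 (n = 3 each). For Psmb10 these means were 270 and 113 CPM in males and 238 and 117 in females.

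Markers of other cell types were present and differed between libraries. None of the markers listed had 0 counts in all libraries. Over all genes tested 6.7% were called lower and 4.01% higher by edgeR, 6.47% lower by DESeq2 and 5.66% lower by limma-voom. Of 14 lymphocyte markers edgeR called 5 lower, DESeq2 called 2 and limma-voom called 1, and without Vehicle 5 edgeR called 1. Their summed level was 148 to 621 CPM with vehicle, highest in Vehicle 5, and 86.3 to 201 with GW2580. Of 6 tested oligodendrocyte markers edgeR called 3 lower, DESeq2 called 3 and limma-voom called 1, and edgeR called 1 without Vehicle 5. With Vehicle 2 and Vehicle 5 left out edgeR called 0 of them lower and 2 higher, where 1397 of 27463 genes were called higher. Their sums were 148 to 14991 CPM with vehicle, highest in Vehicle 2, and 155 to 1443 CPM with GW2580. Of 6 astrocyte markers edgeR called 0 (0 also at an unadjusted p under 0.05), limma-voom called 0 and DESeq2 called 3 lower. All 6 had a lower estimate, with a median log2 fold change of -1.44. edgeR called 3 lower without Vehicle 1, Vehicle 3 or Vehicle 4 and 4 without GW2580 4, where 1637 to 2202 of 27522 to 28266 genes were. With any other single library left out it called 0. The sums were 159 to 694 CPM with vehicle and 148 to 319 with GW2580.

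In each of the remaining lists edgeR called 1 marker. It was lower among 9 monocyte and granulocyte markers (sums of 345 to 17015 CPM with vehicle and 351 to 4850 with GW2580), 7 neuron markers (56.1 to 429 and 47.9 to 139 CPM) and 10 endothelial and mural markers (99.6 to 161 and 104 to 131 CPM). It was higher among 6 tested border macrophage markers (88.6 to 113 and 54.2 to 281 CPM), 7 dendritic cell markers (60.3 to 149 and 85.5 to 165 CPM) and 8 microglia markers (8987 to 18941 and 13036 to 41324 CPM). A single call in lists of 6 to 10 genes is not read as a result about the list. These counts moved with the libraries. Without Vehicle 5 edgeR called 3 monocyte and granulocyte markers lower, where 6.74% of all genes were, and without GW2580 1 it called 0. For neuron markers it called 3 lower without GW2580 4, where 1637 of 27522 genes were, and 0 without Vehicle 2. It called 3 border macrophage markers higher without GW2580 5, where 1211 of 27585 genes were, and 0 higher without GW2580 3. The microglia marker was Cx3cr1, which limma-voom did not call and which lost its call without Vehicle 1, Vehicle 2, Vehicle 5 or GW2580 3. The part of other cell types in the differences of B2m and Psmb10 was not tested. With Vehicle 2 and Vehicle 5 left out, the log2 fold change was -1.43 for B2m (edgeR adjusted p = 0.351) and B2m and Psmb10 were called lower, as were 3.42% of all genes.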

How the data were processed

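RNA of CD11b-selected microglia from 5 vehicle and 5 GW2580 mice was sequenced as read pairs. The authors trimmed the reads, used STAR for alignment to GRCm38, and counted uniquely aligned fragments on RefSeq exons with featureCounts 1.6.3 (per the file headers, without strand), and deposited these counts without normalization, beside the exon length of each gene in bases and the counts of unassigned records. Groups, sex and replicate numbers came from the labels, and symbols and positions from the RefSeq GRCm38 table, which held 46029 of 46152 genes.

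The 10 genes, the pathway and marker lists and the tests were chosen with earlier results of these data known. Genes named in the text were all 10 members, the genes of the ratios, of each list the genes called and up to 3 of the highest mean CPM (for marker lists, whose sums are given, a few of these), and the 3 genes most like each tested member. Genes that passed 1 CPM in 3 or more libraries were tested with edgeR 4.0.16 in R 4.3.3 (TMM, quasi-likelihood F test, treatment as the only term, Benjamini-Hochberg over all genes). The SE is the log2 fold change divided by the root of F. Single genes and ratios used a prior count of 2 and exact permutation tests. Means are of CPM after TMM scaling. DESeq2 1.42.0, limma 3.58.1 (voom) and the other settings were alternatives. For DESeq2 the filter on low counts was not applied. Scripts were tested on simulated data. Python 3.11.15, numpy 2.4.6, pandas 2.3.3, scipy 1.17.1 and matplotlib 3.10.9 were used. Depth was 12550418 to 26079343 assigned fragments, p-values measure the spread between these libraries, and no columns of other samples were present.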

Additional observations from a re-analysis of the deposited data

Results flagged for a closer look

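Groups of 5 libraries were checked for each gene whose levels or fold changes are described above, the subunit ratios and the marker sums, 96 in all. Of these, 21 held a value set apart from the other 4 by more than Dixon's limit of 0.71, where chance gives about 1 in 20. Vehicle 5 was low for B2m (719.9 CPM, the others 3576 to 4664), Psmb2 (142.7 CPM, the others 303.1 to 359.4), Psmb3 (95.2 CPM, the others 272.2 to 333.6), Psmg3 (13.9 CPM, the others 50.2 to 62.3), Psme2 (67.7 CPM, the others 238.3 to 267.4), Psme1 (141 CPM, the others 263 to 274) and Ctss (1890 CPM, the others 8271 to 8671). Its log2 ratio of Psmb10 to Psmb7 was -0.066, against 1.6 to 2.02 in the others. Vehicle 5 was high for Nlrc5 (26.6 CPM, the others 10.3 to 14.8), Psme3 (274.9 CPM, the others 53.8 to 82.0), Rela (393.8 CPM, the others 102 to 143), Tap1 (0.562 CPM, the others 0 to 0.0722) and the sum of the lymphocyte markers (621 CPM, the others 148 to 194).

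Among the GW2580 libraries, GW2580 3 was high for Rela (560.0 CPM, the others 109 to 231), Tmem119 (12451 CPM, the others 3403 to 5852) and the dendritic cell markers (165 CPM, the others 85.5 to 87.5). GW2580 2 was high for the lymphocyte markers (201 CPM, the others 86.3 to 119), GW2580 4 for the oligodendrocyte markers (1443 CPM, the others 155 to 471) and GW2580 1 for Tapbp (0.103 CPM, the others 0). Vehicle 2 was high for the oligodendrocyte markers (14991 CPM, the others 148 to 3237) and Vehicle 1 for the monocyte and granulocyte markers (17015 CPM, the others 345 to 3751).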

How the results depend on the processing

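B2m kept a lower estimate under all 22 alternatives (-1.86 to -0.056), as did Psmb10 (-1.62 to -0.45), while 3 of the 10 genes gave no counts and 3 more too few to test. The 1 member called became 2 with DESeq2, with Vehicle 2 and Vehicle 5 left out or with Vehicle 5 and GW2580 5 left out, and 0 with sex as a term, the replicate block, the percentage on no annotated exon or the length trend of abundant genes removed (added after seeing the data), with a range of 0 to 2 over the libraries left out in turn. The 3046 genes called of 28419 became 4610 of 44086 with DESeq2 and 4802 of 44086 with no low-count filter. DESeq2 was also run without this filter, so both counts rest on more genes. The 3046 became 1181 with the percentage on no annotated exon, 4783 with the abundant-gene length trend removed, 6057 with Vehicle 5 and GW2580 5 left out and 1684 to 4848 with each library left out in turn. With the length trend of all genes tested removed, 1 member and 6 of the other 20S and assembly genes were called. The 7 called 20S and assembly genes became 4 without TMM factors, 0 with the percentage on no annotated exon and 0 with the abundant-gene length trend removed. They became 14 with Vehicle 5 and GW2580 5 left out, where 15.2% of all genes were called lower, and 1 to 14 over the libraries left out in turn. With the abundant-gene length trend removed the median of the members was -0.031, and Psmg3 (0.062), Psmb7 (0.056) and Psme1 (0.016) changed sign.

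Nlrc5 changed sign without TMM factors (0.34), with Vehicle 2 and Vehicle 5 left out (0.29), with Vehicle 5 and GW2580 5 left out (0.11) and over the libraries left out in turn (-0.16 to 0.24). The log2 ratio difference of Psmb10 to Psmb7 was -0.61 to -0.089 with each library left out and -0.72 without Vehicle 5 and GW2580 5. That of H2-K1 to B2m was 1.16 to 1.96, and 2.37. The median of all genes moved by more than 0.1 with library size alone (0.26), with the abundant-gene length trend removed (0.20) and with DESeq2 (-0.11), and the share of higher genes among those called was 70.8%, 85.2% and 38.1% there, against 37.5%. The DESeq2 median is over genes without the low-count filter, and edgeR without this filter moved it by -0.099. Same-numbered vehicle and GW2580 libraries did not deviate together (r from -0.39 to 0.13 over genes, and not every library was closest to its own number), so the numbers were not taken as pairs. The replicate block gave 2554 called genes and a log2 fold change of -1.24 for Psmb10 (edgeR adjusted p = 0.474). The cause of these changes was not tested. Genes near 1 CPM rest on few fragments, and most MHC genes could not be measured from fragments that align to 1 place.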
